A study of Mus musculus with 12 samples.

Results

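Nonclassical MHC class I molecules are the less polymorphic relatives of the classical molecules H2-K and H2-D, and 9 of their genes are described here in B16-F10 melanoma tumors: H2-T23, H2-T22, H2-T10, H2-Q4, H2-Q6, H2-Q7, H2-M3, Cd1d1 and Mr1. The genes were chosen by name, and all 9 were among the 23420 genes of the deposited count table. Of the 9 genes, 7 had at least 1 read and 6 had enough reads to be tested. RNA was sequenced from 12 tumors, 3 from each of 4 groups of male C57BL/6J mice. All mice carried B16-F10 cells, a pigmented melanoma line of C57BL/6 origin, implanted under the skin of the right flank. Obese mice had been fed a cholesterol-supplemented Western diet for 15 weeks, and nonobese mice had been fed the matching control diet. Mice of either diet received anti–PD-1 or isotype control antibodies by intraperitoneal injection at 10 mg/kg once tumors were palpable. The study's methods put the mice on the Western diet at a few weeks of age. Litters and cages are not given in the labels, and tumors of a group are taken as separate mice.

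Classical class I molecules present varied peptides to CD8+ T cells, whereas several nonclassical molecules show a narrow kind of ligand to a particular set of lymphocytes. H2-T23 codes for the heavy chain of Qa-1, which presents leader peptides of other class I molecules to the inhibitory receptor CD94/NKG2A of NK cells and CD8+ T cells. H2-T10 and H2-T22 code for proteins recognized by a subset of γδ T cells. H2-Q4, H2-Q6 and H2-Q7 lie in the Q region of the MHC, and the last 2 genes code for Qa-2. H2-M3 presents N-formylated peptides of bacteria and mitochondria, Cd1d1 presents lipids to NKT cells, and Mr1 presents vitamin B metabolites to MAIT cells. Most of these heavy chains pair with β2-microglobulin, and interferons are known to raise many class I genes.

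Of the 9 genes, 7 lie in the MHC on chromosome 17 (mm10, GENCODE M21). H2-Q4 (chr17:35379617-35385290), H2-Q6 (chr17:35424850-35430055), H2-Q7 (chr17:35439155-35443773) and H2-M3 (chr17:37270220-37274484) are on the plus strand. H2-T23 (chr17:36029773-36032855), H2-T22 (chr17:36037128-36042747) and H2-T10 (chr17:36115876-36121465) are on the minus strand. Cd1d1 (chr3:86995834-86999441) and Mr1 (chr1:155127277-155146814) are outside the MHC, on minus strands. All are annotated as protein coding except H2-T10, a polymorphic pseudogene.

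Stretches upstream of the RefSeq gene starts are shown for H2-T23, H2-Q4 and H2-M3, which were called higher in the treated obese mice. Mr1, which passed no threshold in any comparison, is set beside them. So are H2-Q6, H2-Q7 and H2-T22, which had too few reads to be tested. RefSeq start sites (GRCm38.p6) were at hand for 7 of the 9 genes, H2-T10 and Cd1d1 being the exceptions. The 250 bases before and 50 after each start were searched on both strands for the core of the interferon-stimulated response element, for the gamma-activated sequence TTCNNNGAA and for the CCAAT box. The run GTTTCACTT was added after the sequences had been seen. It was held by H2-Q4, H2-Q6, H2-Q7, H2-T22 and H2-M3, 5 of the 7 genes, and by the classical genes H2-K1 and H2-D1. In all, 0.399% of 32851 promoters held it, but the run was picked from these sequences, so nothing is read from its share among them. Capitals mark this run in the following 30-base stretches, read 5′ to 3′ on the strand of the gene:
H2-Q4, chr17:35379452-35379481: ccatctccccaGTTTCACTTctgctcctaa
H2-Q6, chr17:35424686-35424715: ccatctccccaGTTTCACTTctgctcctaa
H2-Q7, chr17:35439030-35439059: ccatctccccaGTTTCACTTctgctcctaa
H2-T22, chr17:36042916-36042945: taattggcttaGTTTCACTTtcgaatcccc
H2-M3, chr17:37270121-37270150: tttcctctgagGTTTCACTTctctgtaact

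The stretches of the 3 Q-region genes were identical. The core of the interferon-stimulated response element was found in H2-T23 and H2-T22, 2 of the 7 genes, against 3.44% of all promoters. It overlapped the run above in H2-T22, and in both genes it was read on the opposite strand, so that capitals mark its reverse complement. The RefSeq start of H2-T23 lies inside the GENCODE gene, so the stretch of H2-T23 is upstream of the former but within the latter:
H2-T23, chr17:36032806-36032835: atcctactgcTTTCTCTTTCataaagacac
H2-T22, chr17:36042914-36042943: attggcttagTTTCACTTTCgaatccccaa

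H2-M3 alone of the 7 genes held TTCNNNGAA, as did 8.3% of all promoters, and the CCAAT box was in 6 of the 7 against 37.4%. Mr1 held none of these letters. The upstream sequences of H2-M3, up to its first annotated exon, and of Mr1 are given with the run and TTCNNNGAA in capitals, and the CCAAT boxes of H2-M3 left in lower case:
H2-M3, chr17:37269984-37270219, plus strand: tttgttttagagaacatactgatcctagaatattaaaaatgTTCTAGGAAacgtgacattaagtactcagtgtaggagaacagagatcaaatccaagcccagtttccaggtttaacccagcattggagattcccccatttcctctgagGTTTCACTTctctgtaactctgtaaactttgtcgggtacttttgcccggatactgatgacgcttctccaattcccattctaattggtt
Mr1, chr1:155146815-155147064, minus strand: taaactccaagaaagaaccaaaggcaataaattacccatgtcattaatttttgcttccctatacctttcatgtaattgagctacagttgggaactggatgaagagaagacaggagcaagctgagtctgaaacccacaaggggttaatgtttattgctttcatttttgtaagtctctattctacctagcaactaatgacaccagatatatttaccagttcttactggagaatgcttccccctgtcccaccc
A match describes letters in these windows and was not tested for binding of a factor.

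Reads counted on genes numbered between 14022929 and 33871843 per tumor, and 13095 genes had enough reads to be tested. Values per tumor are CPM, in which counts are divided by a library size adjusted by TMM. Genes were called where they differed by more than 2-fold and P before adjustment was below 0.05, the thresholds of the study, in edgeR's quasi-likelihood F-test on all 12 tumors. Benjamini-Hochberg FDR values are over the 13095 genes. The 7 melanoma markers summed to between 24700 and 30300 CPM in all tumors, so the labeled cell line was present throughout. Tumors of the obese anti–PD-1 group also held more immune and fat transcripts than those of the obese isotype group. The 5 T cell markers in the table summed to between 3.53 and 10.5 CPM there, against 1.01 to 1.48 CPM, and the 5 adipocyte markers to between 31.3 and 64.4 CPM, against 15.1 to 22 CPM. The 6 NK cell markers summed to between 1.2 and 7.82 CPM, against 0.525 to 0.769 CPM, with Gzma at 0 in the obese isotype group. The 5 pan-leukocyte markers ran from 48.8 to 137 CPM, against 29.2 to 60.6 CPM, so these groups overlapped. Even so, Ptprc, Coro1a, Laptm5 and Cd52 were called higher and Cd53 was not, where 2.24% of all genes were called higher. Neutrophil markers ran from 2.55 to 3.25 CPM, against 1.38 to 1.89 CPM, with Retnlg at 0 in the obese isotype group. Csf1r of the macrophage, Itgax of the dendritic cell and Mylpf of the muscle markers were called higher, each alone in its list. In bulk tissue, fewer cells of a type and less RNA per cell cannot be told apart, and the part of these cells in the results was not tested.

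H2-Q6 and H2-Q7, which code for Qa-2, had 0 reads in each of the 12 tumors. A count of 0 allows up to 3 reads, which is at most 0.212 CPM in any tumor. Their coding sequences were 95.4% identical, and H2-Q4 was 88.3% identical to H2-Q7. Even so, 87.0% of the 100-base windows of H2-Q6 transcripts and 88.0% of those of H2-Q7 occurred in no other gene. Of the other listed Q-region genes, H2-Q1, H2-Q2, H2-Q8 and H2-Q9 also had 0 reads in every tumor. H2-Q5 and H2-Q10 had 65 and 34 reads in all. How the authors' counting treated reads that fit several genes, and which gene models it used, are not given in the sources used here. The 0 values are therefore not read as absence of the transcripts, and the cause was not tested.

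H2-T22 had 13 reads in all. There were 0, 3 and 0 reads in the nonobese isotype tumors, 0, 1 and 1 with anti–PD-1 in nonobese mice, 0, 0 and 0 in the obese isotype tumors and 3, 2 and 3 with anti–PD-1 in obese mice. No tumor was above 3 reads, so no fold change is given, although each obese anti–PD-1 tumor had reads and no obese isotype tumor did. The gene was 96.9% identical in coding sequence to H2-T10, with a longest shared coding run of 134 bases. Only 6.9% of its 100-base windows were shared with H2-T10, but 24% lay in A930015D03Rik, which overlaps it on the opposite strand.

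Levels between genes were compared per kilobase of annotated exon. Over the 12 tumors, H2-Q4 was highest at 12.2 ± 5.07 CPM per kilobase (SD, n = 12), followed by H2-T23 at 5.62 ± 3.56 and Mr1 at 4.65 ± 0.443. H2-M3 was at 1.31 ± 0.689, Cd1d1 at 0.321 ± 0.137 and H2-T10 at 0.133 ± 0.108 CPM per kilobase. H2-T23 and Mr1, neighbors in this order, differed by less than the SD of H2-T23. The classical genes were far higher, with H2-K1 at 67.3 and H2-D1 at 37.5 CPM per kilobase, and the shared light chain B2m was at 499 CPM per kilobase. The order of the H2-T23 and Mr1 means changed with the group. H2-T23 was at 5.12 ± 0.645 and Mr1 at 4.69 ± 0.306 CPM per kilobase in nonobese isotype tumors (SD, n = 3). H2-T23 was the lower of the pair in nonobese anti–PD-1 tumors, at 3.51 ± 0.714 against 4.52 ± 0.598, and in obese isotype tumors, at 3.43 ± 0.462 against 4.58 ± 0.0652. In the obese anti–PD-1 tumors H2-T23 was at 10.4 ± 4.42 CPM per kilobase and Mr1 at 4.79 ± 0.748.

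**Figure D1:**
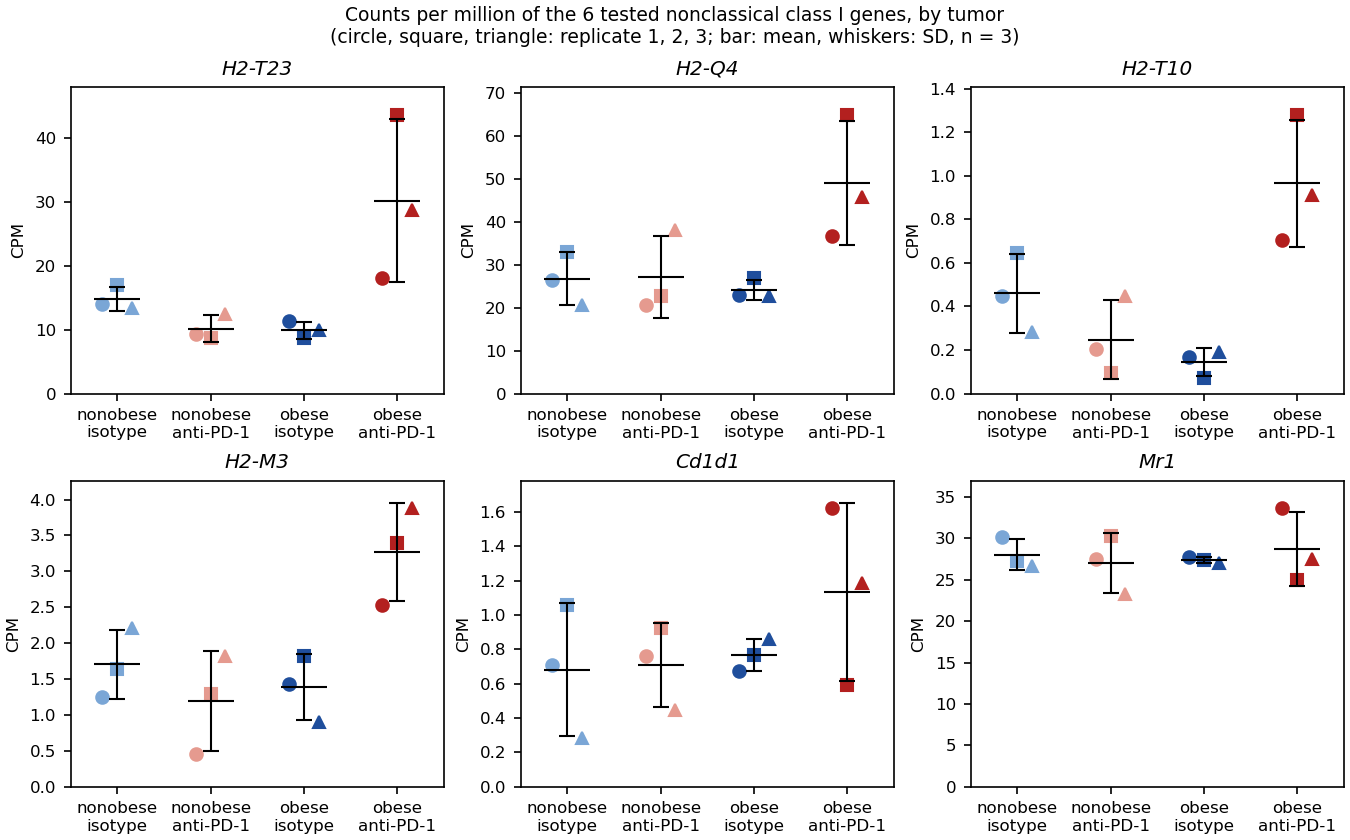
CPM of the 6 tested genes (vertical axes, linear from 0) in each tumor of the 4 groups (horizontal axes). Symbols are replicates, bars are means and whiskers are SD, n = 3. The 3 obese anti–PD-1 tumors were above the other 9 tumors for H2-T23 and H2-M3, and Mr1 was level. They were also above them for H2-T10, which passed the read filter only through these tumors and is not counted. The share of all genes separated in this way was not computed.

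To ask how these genes respond to PD-1 blockade in obese mice, anti–PD-1 tumors were compared with isotype tumors. H2-T23, H2-T10, H2-Q4 and H2-M3 were upregulated at the thresholds, 4 of the 6 tested genes, whereas 2.24% of all genes tested were called higher. The read filter asked for 10 reads at the median depth, or 0.477 CPM, in at least 3 tumors, and H2-T10 met it only through the obese anti–PD-1 tumors in which it was high, since 2 of the other 9 tumors reached it. The call of H2-T10 is therefore not read as support, which leaves 3 of 5 genes. For H2-T23, H2-Q4 and H2-M3 the anti–PD-1 tumors were above the isotype tumors without overlap, which held for 5.45% of all genes. The H2-T10 groups did not overlap either, but that gene is not counted here. Cd1d1 and Mr1 did not pass. The median log2 fold change of the 5 genes without H2-T10 was 1.03, against -0.01 over all genes. None of the 6 had an FDR below 0.05 by edgeR. No gene at all did so in this comparison, although 991 genes had an unadjusted P below 0.05. DESeq2 gave 105 genes an FDR below 0.05, with H2-T23 and H2-Q4 among them. Testing every gene with at least 1 count in edgeR gave 6 such genes, with H2-T23 among them at 0.0228, and the replicate block gave 2, with none of the 6 tested genes among them.

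H2-T23, the gene of Qa-1, was at 11.3, 8.60 and 9.88 CPM in the obese isotype tumors and at 18.1, 43.5 and 28.7 CPM in the obese anti–PD-1 tumors. The lowest anti–PD-1 tumor was above each of the other 9 tumors of the study, and the group varied more than any other. The log2 fold change was 1.60 (SE 0.26, 3.03-fold, 95% interval 2.05 to 4.49), and only 3 of the 13095 genes had a smaller P (edgeR unadjusted P = 3.304e-05, FDR = 0.108). Leaving out 1 tumor at a time gave values from 1.24 to 1.89, and DESeq2 gave an FDR of 9.77e-06.

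H2-T10 was a gene of few reads, with 4, 1 and 4 reads in the obese isotype tumors and 10, 26 and 20 in the obese anti–PD-1 tumors. In CPM these were 0.168, 0.0700 and 0.191 against 0.705, 1.28 and 0.912. The groups did not overlap, and the anti–PD-1 tumors again exceeded the other 9. Since H2-T10 passed the read filter only through these tumors, this is not read as support. The log2 fold change was 2.66 (SE 0.64, 6.31-fold, 95% interval 2.44 to 16.3, FDR = 0.220 by edgeR). The gene overlaps Gm7030 on its own strand and BC023719 on the other, the latter over 22.5% of its windows.

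H2-Q4 had 22.97, 26.86 and 22.63 CPM in the obese isotype tumors and 36.7, 64.9 and 45.8 CPM in the obese anti–PD-1 tumors. The groups were separate, but the lowest treated tumor was under the highest nonobese anti–PD-1 tumor. The log2 fold change of 1.03 (SE 0.25, edgeR FDR = 0.220) was just above the threshold for a fold change of 2. It was 0.77 without obese anti–PD-1 replicate 2 and 0.98 without obese isotype replicate 3, below that threshold in both cases, as under the replicate block at 0.9984.

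H2-M3, which shows formylated peptides to CD8+ T cells, was at 1.43, 1.82 and 0.907 CPM in the obese isotype tumors and at 2.54, 3.39 and 3.88 CPM in the obese anti–PD-1 tumors. All treated tumors were above all others of the study. The log2 fold change was 1.25 (SE 0.45, unadjusted P = 0.0144, edgeR FDR = 0.488), and without obese isotype replicate 3 it was 1.02 with an unadjusted P of 0.0632. None of the 100-base windows of H2-M3 occurred in another gene.

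The 2 genes outside the MHC did not pass the thresholds. Cd1d1 was at 0.673, 0.769 and 0.859 CPM in the obese isotype tumors and at 1.62, 0.590 and 1.19 CPM with anti–PD-1, so that the groups overlapped. Its log2 fold change was 0.54 with a 95% interval from -0.57 to 1.66, which leaves room for a change beyond 2-fold. Mr1 was at 27.8, 27.4 and 27.0 CPM in the isotype tumors and at 33.6, 24.9 and 27.5 CPM with anti–PD-1. Its log2 fold change of 0.06 had a 95% interval from -0.22 to 0.35, or 0.856- to 1.27-fold. Mr1 was the steadiest of the 6 genes, with a factor of 1.45 between its highest and lowest tumor, against 3.16 for H2-Q4 and 5.06 for H2-T23.

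**Figure D2:**
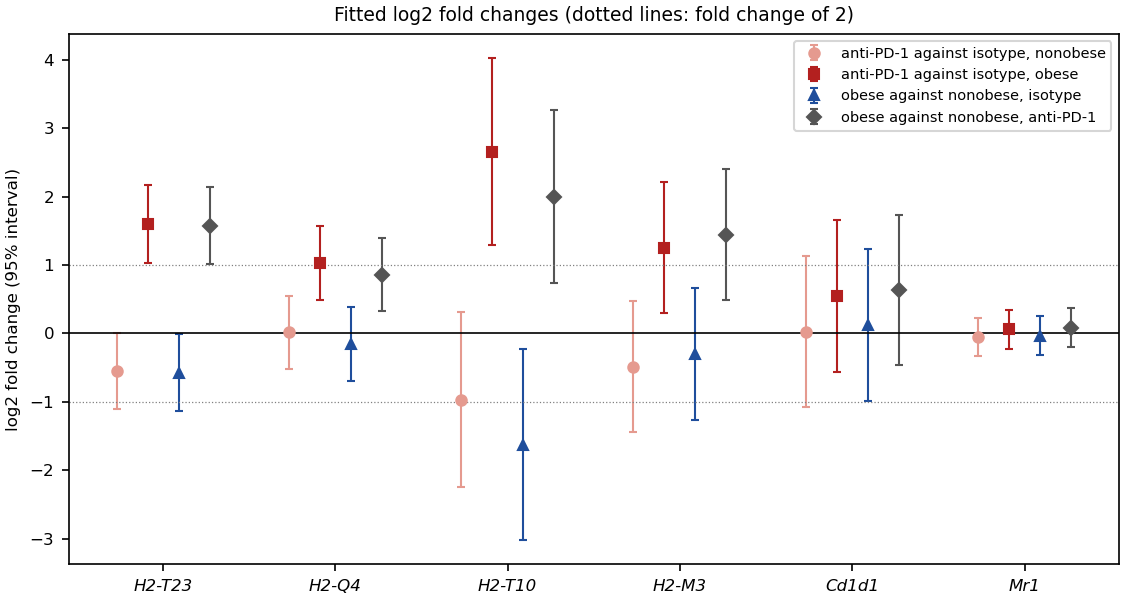
Log2 fold changes (vertical axis) with 95% intervals of the 6 tested genes in 4 comparisons (symbols). Dotted lines mark a fold change of 2. Intervals of the obese anti–PD-1 tumors against either reference group were above 0 for H2-T23, H2-Q4 and H2-M3. Those of H2-T10 were too, but that gene passed the read filter only through the obese anti–PD-1 tumors. Against nonobese anti–PD-1 tumors, H2-Q4 was under a fold change of 2 and the tumors overlapped. The Mr1 intervals all spanned 0.

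In nonobese mice none of the 6 genes passed the thresholds in either direction with anti–PD-1, and none had an unadjusted P below 0.05 by edgeR. By DESeq2 the unadjusted P of H2-T23 was 0.0414, with an FDR of 0.883. The median log2 fold change was -0.27, against 0.02 over all genes. It was -0.053 for the 5 genes without H2-T10, which met the read filter only through the obese anti–PD-1 tumors. H2-T23 was at 14.0, 16.9 and 13.4 CPM with isotype and at 9.30, 8.63 and 12.5 CPM with anti–PD-1. The treated tumors were below the isotype tumors without overlap, as were those of 5.37% of all genes, but the log2 fold change of -0.55 (SE 0.26, unadjusted P = 0.0529, edgeR FDR = 0.929) was short of both thresholds, which 2.31% of all genes passed in this direction. Pan-leukocyte markers were also lower with anti–PD-1 in these mice, at 36.9 to 43.2 CPM against 55.1 to 116 CPM, as were macrophage markers, at 70.6 to 109 against 118 to 242 CPM, and fibroblast markers, at 261 to 527 against 581 to 2760 CPM. Of these, 1 of 5 pan-leukocyte, 3 of 5 tested macrophage and 5 of 6 fibroblast markers were called lower. Keratinocyte markers were at 0 to 0.223 against 0.625 to 7.76 CPM, with Krt5 called lower at -4.56. The adipocyte markers Adipoq (-2.37) and Cidec (-2.29) were called lower too. The part of these cells in the values of H2-T23 was not tested.

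The other genes overlapped between the nonobese groups. H2-T10 had 0.450, 0.647 and 0.284 CPM with isotype and 0.203, 0.0928 and 0.446 CPM with anti–PD-1, a log2 fold change of -0.97 (SE 0.59) that passed the thresholds only without nonobese anti–PD-1 replicate 3, at -1.75. H2-Q4 had 26.53, 33.01 and 20.67 CPM with isotype and 20.5, 22.8 and 38.0 CPM with anti–PD-1. The third of these treated tumors was the highest of the 9 tumors outside the obese anti–PD-1 group, and the log2 fold change was 0.01 (95% interval -0.52 to 0.55). H2-M3 was at 1.25, 1.65 and 2.22 CPM against 0.458, 1.30 and 1.83 CPM. Cd1d1 was at 0.707, 1.06 and 0.284 CPM against 0.763, 0.928 and 0.446 CPM. Mr1 was at 30.1, 27.3 and 26.7 CPM against 27.5, 30.3 and 23.2 CPM, with a 95% interval of the log2 fold change from -0.34 to 0.23.

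The difference between the 2 responses was tested itself, subtracting the log2 fold change of nonobese mice from that of obese mice. The same 4 genes passed the thresholds in the higher direction, as did 4.93% of all genes. The difference was 2.15 for H2-T23 (SE 0.37, log2 scale, edgeR FDR = 0.0855), the 7th smallest P of all genes, and DESeq2 gave it an FDR of 2.388e-05. It was 3.62 for H2-T10 (SE 0.87), 1.74 for H2-M3 (SE 0.63) and 1.01 for H2-Q4 (SE 0.35), with edgeR FDR values of 0.122, 0.271 and 0.257. For Cd1d1 it was 0.52 (95% interval -1.04 to 2.08) and for Mr1 0.12 (95% interval -0.29 to 0.52). Without H2-T10, which passed the filter through the treated obese tumors, 3 of 5 genes were called, with a median of 1.01, against -0.04 over all genes. The call of H2-Q4 was lost in 6 of the 12 fits that left out 1 tumor, namely nonobese isotype replicate 2, nonobese anti–PD-1 replicate 1 or 2, obese isotype replicate 1 or 3, or obese anti–PD-1 replicate 2, with values from 0.76 to 1.37 over the 12. It was also lost under the replicate block, at 0.9846. Markers of other cell types passed in the same direction. Pan-leukocyte markers ran from 1.52 (Cd53) to 2.46 (Laptm5), macrophage markers from 1.15 (Cd68) to 2.83 (Csf1r) and adipocyte markers from 1.59 (Fabp4) to 5.38 (Adipoq). Of the 6 fibroblast markers 5 passed, Col1a1 at 3.10 among them, and Lum did not. None of the 7 melanoma markers passed. The part of these cells in the difference was not tested.

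To compare the diets without PD-1 blockade, obese isotype tumors were set against nonobese isotype tumors. These comparisons reuse the groups above, so their values are not independent of the earlier ones. H2-T10 passed in the lower direction with a log2 fold change of -1.62 (SE 0.65, unadjusted P = 0.0259, edgeR FDR = 0.327), 1 of 6 genes against 1.12% of all genes. Since H2-T10 met the read filter only through the obese anti–PD-1 tumors, its call is not read as support. Without it, 0 of 5 genes were called. H2-T23 was lower in obese mice without overlap, as were 9.02% of all genes. The H2-T10 groups did not overlap either, but that gene is not counted here. The change of H2-T23 was -0.57 (SE 0.26, unadjusted P = 0.0455, FDR = 0.374 by edgeR), under a fold change of 2. The H2-T10 call rested on 9 reads in the obese isotype tumors and was lost without nonobese isotype replicate 2, at -1.30, or without obese isotype replicate 2, at -1.37. H2-Q4 (-0.15), H2-M3 (-0.30), Cd1d1 (0.12) and Mr1 (-0.03) did not pass. The median log2 fold change was -0.23, or -0.15 without H2-T10, against 0.01 over all genes. Markers of other cells also ran lower in the obese isotype tumors. The ranges of the leukocyte, macrophage, fibroblast and NK cell markers overlapped between the groups. Pan-leukocyte markers summed to between 29.2 and 60.6 CPM, against 55.1 to 116 CPM in nonobese mice, with 1 of 5 called lower (Laptm5). Macrophage markers ran from 87.6 to 142 CPM, against 118 to 242 CPM, with 2 of 5 called lower (Csf1r and Mrc1). Fibroblast markers ran from 194 to 1070 CPM, against 581 to 2760 CPM, and NK cell markers from 0.525 to 0.769 CPM, against 0.707 to 2.09 CPM. Keratinocyte markers did not overlap, at 0 to 0.463 CPM against 0.625 to 7.76 CPM, with Krt10 and Krt1 at 0 in both groups and Krt5, the only one tested, called lower at -3.92. The fibroblast marker Col1a1 (-1.55) and the adipocyte markers Adipoq (-1.73) and Cidec (-1.55) were called lower too. T cell markers overlapped, at 1.01 to 1.48 CPM against 1.16 to 2.7 CPM. The lower call of Cd3d is not counted, since that gene passed the read filter only through the obese anti–PD-1 tumors, and Cd3g was at 0.32. The part of these cells in the values of H2-T10 and H2-T23 was not tested.

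Between the 2 anti–PD-1 groups, obese tumors had higher levels of H2-T23, H2-T10 and H2-M3, 3 of 6 genes against 3.69% of all genes called higher. The groups did not overlap for H2-T23 and H2-M3, as for 6.54% of all genes. Nor did they for H2-T10, which is not counted, since it passed the read filter only through the obese anti–PD-1 tumors. H2-T23 was the only one of the 6 with an FDR below 0.05 by edgeR, and 50 genes in all had one. Its log2 fold change was 1.58 (SE 0.26, 2.98-fold, 95% interval 2.02 to 4.40, edgeR FDR = 0.0264). The FDR was 0.210 in a fit of only these 6 tumors. It was also above 0.05 in 6 of the 12 fits that left out 1 tumor, at 0.130 and 0.226 without nonobese anti–PD-1 replicate 1 or 2, 0.0608 and 0.0507 without obese isotype replicate 1 or 3, and 0.104 and 0.101 without obese anti–PD-1 replicate 2 or 3. DESeq2 gave an FDR of 3.808e-06 for H2-T23 and 0.0394 for H2-Q4. H2-T10 had a log2 fold change of 2.00 (SE 0.58) and H2-M3 of 1.44 (SE 0.44), with edgeR FDR values of 0.188 and 0.225. H2-Q4 was at 0.86 (SE 0.25, unadjusted P = 0.0041), under the fold threshold and with overlapping groups. It passed at 1.20 without nonobese anti–PD-1 replicate 3 and at 1.06 without obese anti–PD-1 replicate 1. Mr1 was at 0.08 (95% interval -0.20 to 0.37) and without H2-T10 2 of 5 genes were called, with a median of 0.86, against -0.01 over all genes. Markers of several other cell types were also higher in the obese tumors of this comparison, without overlap. Pan-leukocyte markers summed to between 48.8 and 137 CPM, against 36.9 to 43.2 CPM, and T cell markers to between 3.53 and 10.5 CPM, against 0.407 to 1.43 CPM. All 5 pan-leukocyte markers were called higher, whereas 4 of the 5 tested T cell markers passed the read filter only through the obese anti–PD-1 tumors, so their calls are not counted. Macrophage markers ran from 133 to 214 CPM, against 70.6 to 109 CPM, with 3 of 5 called higher. Adipocyte markers ran from 31.3 to 64.4 CPM, against 13.5 to 19.9 CPM, and all 5 were called higher, Plin1 after passing the filter only through the obese anti–PD-1 tumors. NK cell markers ran from 1.2 to 7.82 CPM, against 0.508 to 0.847 CPM, and neutrophil markers from 2.55 to 3.25 CPM, against 0.356 to 2.1 CPM, with Ncr1 at 0 in the nonobese anti–PD-1 tumors. Their part in the values of the nonclassical genes was not tested.

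**Figure D3:**
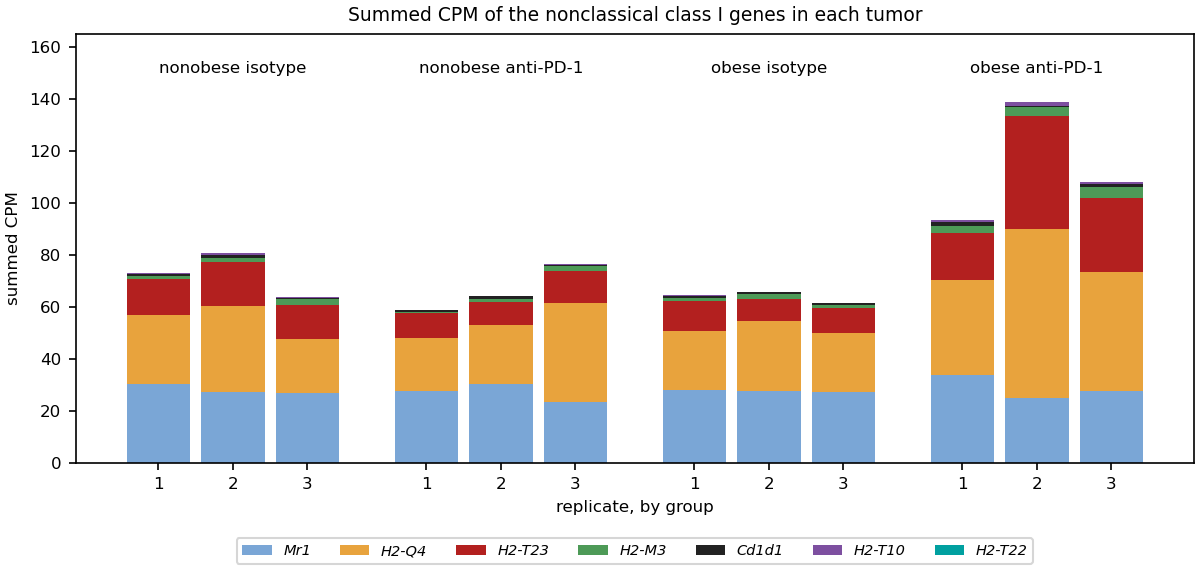
Summed CPM of the 7 genes with reads in each tumor, stacked by gene (vertical axis, linear from 0, reads not divided by gene length) for replicates 1 to 3 of each group (horizontal axis). The obese anti–PD-1 tumors reached 93.5 to 139 CPM, above the 58.8 to 80.7 CPM of the other 9, with Mr1 between 23.2 and 33.6 CPM in all.

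Added together, the nonclassical genes had 72.4 ± 8.57 CPM in nonobese isotype tumors, 66.5 ± 9.11 CPM in nonobese anti–PD-1 tumors and 63.8 ± 2.08 CPM in obese isotype tumors (SD, n = 3 each). The sum was 113 ± 23.1 CPM in obese anti–PD-1 tumors. Mr1 made up between 18% and 36% of these reads in the obese anti–PD-1 tumors and between 30.4% and 47.3% in the other 9, ranges that overlapped in replicate 1 of the treated group. H2-T23 made up 19.4%, 31.4% and 26.6% of the reads in the obese anti–PD-1 tumors and between 13.1% and 21.1% in those 9, so these ranges overlapped in replicate 1 as well.

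Ratios within a tumor were compared by two-sided exact permutation tests, which cannot give a P below 0.1 for 3 tumors against 3. CPM of H2-T23 amounted to 7.18% ± 0.621 of that of the classical gene H2-K1 in obese isotype tumors and to 8.75% ± 2.15 in obese anti–PD-1 tumors (SD, n = 3, exact P = 0.4), a difference within the spread of the treated group. In nonobese mice the ratio was 9.61% ± 1.98 with isotype and 6.58% ± 0.81 with anti–PD-1 (exact P = 0.1, n = 3, 0.32 after adjustment over the 16 ratio comparisons). Between the isotype groups it was lower in obese mice without overlap (exact P = 0.1, n = 3, adjusted 0.32). Relative to B2m, H2-T23 was at 4.12% ± 0.359 and 3.76% ± 0.731 in the nonobese isotype and anti–PD-1 tumors (exact P = 0.5). It was at 2.67% ± 0.551 and 4.19% ± 1.22 in the obese ones (exact P = 0.2). Between the isotype groups this ratio had an exact P of 0.1 (adjusted 0.32), and between the anti–PD-1 groups of 0.7. Mr1 relative to B2m was 7.32% ± 0.598 in obese isotype and 4.22% ± 1.27 in obese anti–PD-1 tumors, with no overlap (exact P = 0.1, n = 3, adjusted 0.32). It was 10.6% ± 4.02 in nonobese anti–PD-1 tumors, also without overlap with the obese anti–PD-1 tumors (exact P = 0.1, n = 3, adjusted 0.32). Cd1d1 relative to B2m differed by less than its spread in the 4 comparisons, with exact P values from 0.5 to 0.9 for n = 3.

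**Figure D4:**
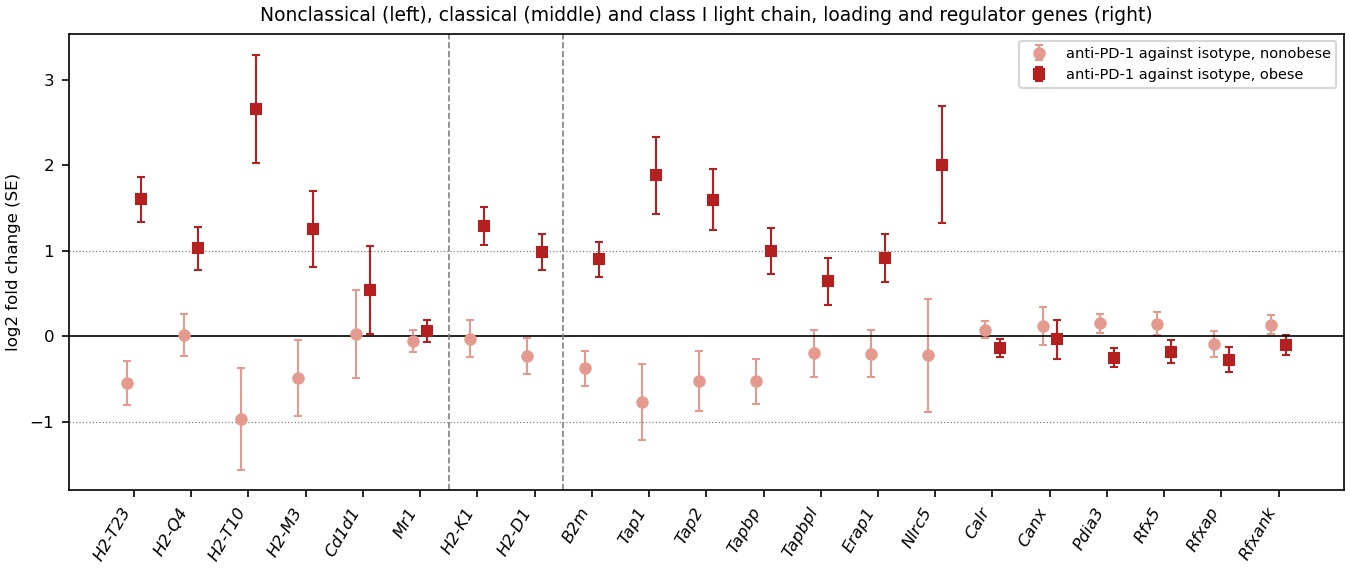
Log2 fold changes with anti–PD-1 (vertical axis, whiskers are SE) in nonobese and obese mice for the 6 tested nonclassical genes, the 2 classical genes and the 13 genes of the class I light chain, loading and transcriptional control. H2-T23 at 1.60 lay near H2-K1 at 1.29 in obese mice, and Calr, Canx and Pdia3 lay near 0 in both diets.

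The classical genes and the machinery that serves the same molecules were read from lists. H2-K1 was at 138 ± 15.4 CPM in obese isotype tumors and 337 ± 84.9 CPM in obese anti–PD-1 tumors (SD, n = 3), a log2 fold change of 1.29 that passed, and H2-D1 at 0.99 (SE 0.21) fell just short. Of the 13 genes for the light chain, peptide loading and class I transcription, 3 were upregulated by anti–PD-1 in obese mice, where 2.24% of all genes were called higher, with a list median of 0.64. They were Tap1 and Tap2, the peptide transporter, at 1.88 and 1.60, and Nlrc5, the transactivator of class I genes, at 2.01. B2m was at 0.90 (SE 0.21). Tapbp (0.997), Erap1 (0.92) and Tapbpl (0.64) had an unadjusted P below 0.05 by edgeR but fell short of a 2-fold change. The chaperones Calr (-0.14), Canx (-0.04) and Pdia3 (-0.25) and the DNA-binding Rfx5, Rfxap and Rfxank did not pass. Tumor by tumor, Nlrc5 was at 8.08, 5.32 and 7.83 CPM with isotype and 11.7, 42.8 and 31.0 CPM with anti–PD-1, lowest in the treated tumor that was also lowest for H2-T23. In nonobese mice 0 of the 13 genes passed, with a list median of -0.20. Between the anti–PD-1 groups, 5 of the 13 were called higher in obese mice, against 3.69% of all genes, B2m at 1.32 among them (edgeR FDR = 0.0260), and both H2-K1 and H2-D1 were called higher.

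Of 9 genes for loading lipids on CD1d and for its trafficking, Cd74 and Ctss were upregulated by anti–PD-1 in obese mice, at 1.64 and 1.16, and both were called lower in nonobese mice, at -1.12 and -1.39. Over all genes, 2.24% were called higher in the former and 2.31% lower in the latter comparison. These 2 genes also serve class II antigen presentation, as the invariant chain and the protease that trims it. Saposin precursor Psap, the lipid transfer genes Gm2a, Npc2 and Mttp, the adaptor genes Ap3d1 and Ap3b1, and Ctsl did not pass, and the list median in obese mice was 0.11.

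Among 26 other nonclassical and class I-like genes, 9 were tested and H2-T24 alone passed in obese mice, against 2.24% of all genes called higher. This T-region neighbor of H2-T23 was at 0.547, 0.140 and 0.525 CPM with isotype and 0.846, 1.62 and 2.05 CPM with anti–PD-1, without overlap (log2 fold change 1.84, SE 0.55, edgeR FDR = 0.336). The iron regulator Hfe (-0.17), the Fc receptor Fcgrt (0.31) and the protein C receptor Procr (-0.23) did not pass, nor did the NKG2D ligands Raet1d, H60b and Ulbp1, which lay between -0.55 and -0.02. The median of the 9 genes was -0.17.

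The lymphocyte genes that face these molecules were rare. Of 12 listed genes 10 were in the table and 4 could be tested, namely Cd8a, Cd8b1, Cd3e and Il2rb. Of these, Cd8a, Cd8b1 and Cd3e passed the read filter only through the obese anti–PD-1 tumors, so no count of calls is drawn from the list. The log2 fold changes with anti–PD-1 in obese mice ran from 2.75 to 3.09. Cd8a, the coreceptor that binds class I, was at 0.168, 0.350 and 0.382 CPM with isotype and 0.635, 4.23 and 2.69 CPM with anti–PD-1. Klrc1, which codes for the Qa-1 receptor NKG2A, was below the filter, with 0, 0 and 1 reads in the obese isotype tumors and 1, 7 and 7 in the obese anti–PD-1 tumors. Its partner Klrd1 (CD94) had 1, 1 and 1 reads against 0, 5 and 6. In both, replicate 1 of the obese anti–PD-1 group was the lowest of its group, as it was for H2-T23, H2-T10, H2-Q4 and H2-M3, but not for Cd1d1 or Mr1.

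Of 13 interferon signaling genes, 11 were tested and in obese mice Irf1 alone passed with treatment, at 1.00 (SE 0.40), against 2.24% of all genes called higher. The list median was -0.03, with the receptor genes Ifngr1, Ifngr2, Ifnar1 and Ifnar2 between -0.23 and -0.06. Ifng itself was below the filter.

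Likeness between genes was measured as Pearson's r of log2 CPM over the 12 tumors, which pools the 4 groups and so contains the differences between them. The highest values among the 6 genes were those of H2-T23 with H2-T10 (r = 0.927) and with H2-Q4 (r = 0.885). H2-T10 passed the read filter only through the obese anti–PD-1 tumors, so its values of r are not read as likeness. Values between H2-M3 and the other 3 H2 genes were between 0.621 and 0.751. Mr1 stood apart from the 4 H2 genes, with r from -0.272 to -0.088, and so did Cd1d1, with r from 0.05 to 0.203. Between Cd1d1 and Mr1, r was 0.657. Over all genes tested, H2-T23 had its highest r with Gzmb, the granzyme of cytotoxic lymphocytes (r = 0.977), Apol9a (r = 0.97) and the immunoproteasome subunit Psmb8 (r = 0.966). H2-Q4 was most like H2-D1 and H2-K1 (r = 0.956 and 0.951). The highest r of H2-M3 was with the chemokine gene Ccl3 (r = 0.966). For H2-T10 the highest values were with Gzmb, Cytip and the perforin gene Prf1, and Prf1 had passed the filter in the same way as H2-T10. Genes outside the lists were not checked for this. Gzmb, Ccl3 and Cytip had means of only 0.575, 0.716 and 1.11 CPM over the 12 tumors, where the filter asked for 0.477 CPM. Their values of r are therefore not read as likeness either. The H2-Q4 coding sequence was 89.9% identical to H2-D1 and 89.7% to H2-K1, yet only 2.3% of its 100-base windows occurred at another locus.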

How the data were processed

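RNA of 12 frozen B16-F10 tumors was sequenced as single-end reads of 100 bp from stranded poly(A) libraries. The submitters' processing notes list FastQC 0.11.5, STAR 2.7.0f, HTSeq 0.9.1, edgeR 3.28.1 and the mm10 build. The authors deposited raw counts per gene, without normalization, and 0 sample columns were left unused. The gene models, the strand setting and the treatment of reads that fit several places are not given in the sources used here. Reads carried no molecular identifiers, so the floor of 3 reads covers counting error only.

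Counts were filtered with filterByExpr, scaled by TMM and fitted with 4 group means (8 residual degrees of freedom) by glmQLFit (legacy=TRUE) and glmQLFTest of edgeR 4.0.16 under R 4.3.3, and P values were adjusted over all 13095 genes by Benjamini-Hochberg. Standard errors and 95% intervals were derived from the F statistic and so include the spread between tumors. The code was tested on simulated data. DESeq2 1.42.0, RLE scaling, other filters, the current and robust forms of the fit, fits of the 6 tumors compared, a replicate block and leaving out each tumor were the alternatives. Nothing in the labels ties equal replicate numbers to a shared mouse or batch, and p-values measure the spread between these tumors. Deviations of equally numbered tumors correlated at 0.443, 0.111 and 0.351 between the 2 anti–PD-1 groups, over 0.1 in all pairs, and not in the other comparisons. The replicate block changed no call of the genes described in that comparison.

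The genes and lists were chosen with earlier results of these data known. All 9 genes are named, with others from the lists given and the 3 genes most like each. Positions, exon lengths and shared 100-base windows are from GENCODE M21, promoters from RefSeq. Python 3.11.15 was used for sequences and figures.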

Additional observations from a re-analysis of the deposited data

Results flagged for a closer look

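The response to anti–PD-1 differed between obese and nonobese mice for 4 of the 6 tested genes by a test of the difference itself, at thresholds that 4.93% of all genes passed in this direction. Without H2-T10, which passed the read filter only through the obese anti–PD-1 tumors, it was 3 of 5. On the log2 scale, obese minus nonobese, it was 2.15 for H2-T23, 3.62 for H2-T10, 1.74 for H2-M3 and 1.01 for H2-Q4, with edgeR quasi-likelihood FDR values of 0.0855, 0.122, 0.271 and 0.257. For H2-T23, H2-T10 and H2-M3 the fitted change was downward in nonobese mice, where none passed the thresholds, and upward in obese mice. The H2-Q4 value fell under the fold threshold in 6 of the 12 fits that left out 1 tumor, under the replicate block and with a filter of 1 count. Leukocyte, macrophage and adipocyte markers passed the thresholds in the same direction, such as Laptm5 at 2.46, Csf1r at 2.83 and Adipoq at 5.38. So did 5 of the 6 fibroblast markers. The part of these cells in these differences was not tested. Single outlying tumors were not tested for in groups of 3.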

How the results depend on the processing

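Among the 6 tested genes, the filter of at least 10 counts in every tumor left H2-T23, H2-Q4 and Mr1 and so gave smaller counts past the thresholds: 2 with anti–PD-1 in obese mice, 0 between the isotype groups, 1 between the anti–PD-1 groups and 2 for the difference between responses. A filter of 1 count in all gave 5 of 7 genes in obese mice, the fifth being H2-T22 with its 13 reads. Leaving out 1 tumor gave counts from 0 to 1 in nonobese mice (1 without nonobese anti–PD-1 replicate 3), from 2 to 4 in obese mice (2 without obese isotype replicate 3), from 0 to 1 between the isotype groups (0 without replicate 2 of either group), from 3 to 4 between the anti–PD-1 groups and from 3 to 4 for the difference. Under the replicate block, H2-Q4 fell under a fold change of 2, at 0.9984 on the log2 scale with anti–PD-1 in obese mice and 0.98 for the difference, and with a filter of 1 count it was at 0.9955 for the difference. The block changed no other call.

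Values near 0 changed sign without passing, and the cause was not tested. With anti–PD-1 in nonobese mice, H2-Q4 was at -0.0137 with the filter of 10 counts and Cd1d1 at -0.0346 with the current glmQLFit. Leaving out 1 tumor gave H2-Q4 -0.33 to 0.20, Cd1d1 -0.32 to 0.48 and Mr1 -0.146 to 0.0247 there, Mr1 -0.036 to 0.154 in obese mice, H2-Q4 -0.325 to 0.0278, Cd1d1 -0.23 to 0.57 and Mr1 -0.0879 to 0.0217 between the isotype groups, and Mr1 -0.0203 to 0.175 between the anti–PD-1 groups. Depth limits H2-T10 and Cd1d1, with as few as 1 and 5 reads in a tumor, and leaves H2-T22 untested.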
